A study of Mus musculus with 6 samples.

Results

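The PDGF, FGF, HGF and GAS6 receptor families were followed here through 7 genes: Pdgfa, which encodes a ligand, and Pdgfra, Pdgfrb, Fgfr1, Fgfr2, Met and Axl, which encode receptor tyrosine kinases. The rows of the deposited table that carry these symbols were taken, and all 7 were found among its 11417 genes. RNA of 3 untreated mouse mammary epithelial cell lines grown on plastic was sequenced after poly(A) selection, as 2 libraries of each line. BC44 grew in RPMI1640 with 10% serum and insulin at 5 µg/ml. HC11 grew in that medium with EGF at 10 ng/ml added, and C57MG in DMEM GlutaMAX with 10% serum and insulin at 10 µg/ml. Line and medium therefore cannot be told apart. The labels do not say whether the replicates were separate cultures, so p-values measure only the spread between these libraries.

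Receptor tyrosine kinases carry a growth factor signal across the cell membrane: ligand brings receptors together, and the kinase domains phosphorylate each other and recruit adaptors. In the mammary gland, HGF and many FGFs are made by stromal cells and act on MET and FGFR2 of the epithelium, while PDGF receptors are typical of fibroblasts and other mesenchymal cells. AXL, a receptor of the TAM family, binds GAS6 and is often high in mesenchymal-like cells.

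The values are RPKM, read numbers scaled by gene length and by library size, so levels of different genes can be set side by side. All 3 lines are labelled mammary epithelial, and the marker genes separated C57MG from the other lines. Of 17 listed epithelial markers, 12 reached 1 RPKM in both BC44 libraries and 16 and 17 in HC11, against 4 and 1 in C57MG replicates 1 and 2. Cdh1 and Epcam were listed at 0 in C57MG replicate 2, and Krt18 and Cldn3 at 0 in both BC44 libraries. The 20 listed mesenchymal markers summed to 604.4 and 668 RPKM in BC44, 676.5 and 678.2 for HC11 and 8333 and 8076 for C57MG. By count they were less distinct: 12 and 13 reached 1 RPKM in BC44, 11 and 12 in HC11 and 18 in both C57MG libraries. Dcn was listed at 0 in all BC44 and C57MG libraries. C57MG is thus called mesenchymal-like and the other lines epithelial-like below. In bulk RNA, fewer cells of a type and less RNA per cell cannot be told apart.

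The receptor set changed from line to line. BC44 held Fgfr2, Met and Axl as its main receptors, HC11 held Axl and Met with little Fgfr2, and C57MG held Axl, Pdgfrb, Fgfr1 and Pdgfra with little Met and Fgfr2. The 6 receptor genes summed to 109.6 and 114.9 RPKM in BC44, 123.6 and 151.1 for HC11 and 242.1 and 247.3 for C57MG. Axl supplied 20.98% to 23.95% of that sum in BC44, 50.9% to 51.4% in HC11 and 46.3% to 47.4% in C57MG. Met supplied 29.6% to 35.1% in BC44, 35.9% to 39.5% in HC11 and 1.88% to 2.45% in C57MG. Fgfr2 supplied 31.6% to 32.3% in BC44 but at most 1.45% for HC11 and 1.33% for C57MG. The PDGF receptors had their highest shares in C57MG, with Pdgfrb at 27.9% to 30.5% and Pdgfra at 7.03% to 7.26%. They supplied at most 1.18% and 2.00% in any library of the epithelial-like lines.

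**Figure D1:**
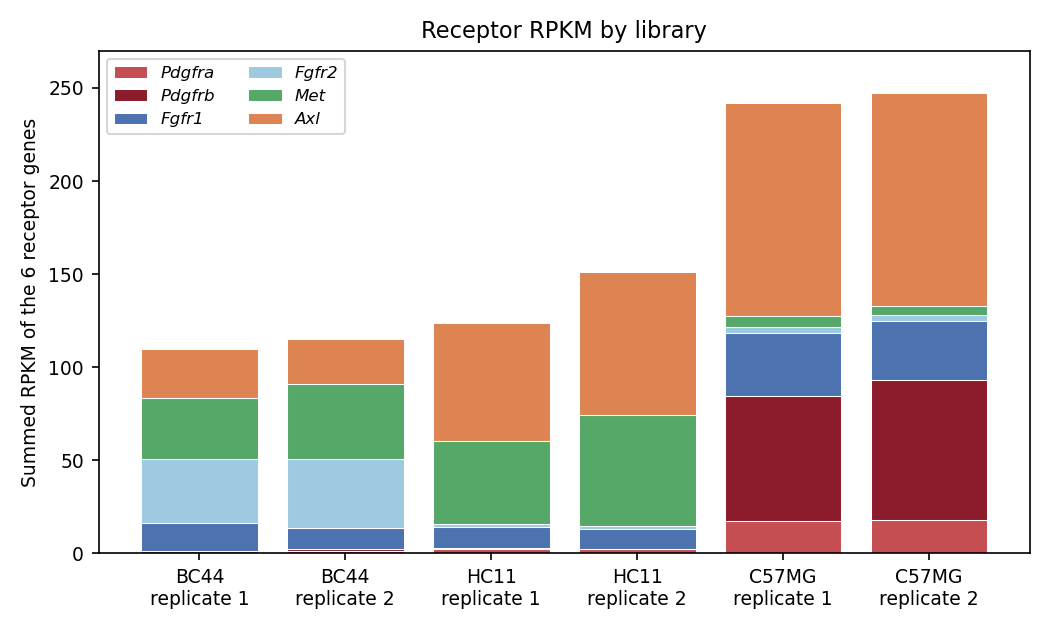
Summed RPKM of the 6 receptor genes in each of the 6 libraries, split by gene (vertical axis in RPKM, starting at 0). The C57MG bars reach 242.1 and 247.3 RPKM and carry Pdgfrb, which is barely visible in the other libraries, while Fgfr2 is visible mainly in BC44.

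Differences were tested with limma on log2(RPKM + 1), with Benjamini-Hochberg adjustment over 10759 genes and a threshold of 0.05. All 7 genes passed the expression filter, Pdgfrb through both C57MG libraries and BC44 replicate 2, so it entered the test through the line where it is high. The same holds for some genes of the pathway lists below, such as Hgf, Pdgfrl, Flrt3, Styk1 and Ret, and no list count or median is offered as support for a difference. Between BC44 and HC11, 6 of the 7 differed, where 47.7% of all tested genes did. Between BC44 and C57MG all 7 differed, against 71.7% of tested genes, and between HC11 and C57MG all 7 differed, against 70.5%. Pdgfa, Pdgfrb and Fgfr2 were higher in BC44 than in HC11 (24.7% of tested genes were), and Pdgfra, Met and Axl were higher in HC11 (23.0%). Over C57MG, BC44 was higher in Pdgfa, Fgfr2 and Met (37.5%) and lower in the other 4 (34.1%), and HC11 was higher in Pdgfa and Met (37.4%) and lower in the other 5 (33.2%). No library of one line fell within the range of the other for 6, 7 and 7 of the genes, as for 73.0%, 87.9% and 86.2% of tested genes. With calls this common, the counts say little about the 7 genes. The genes were chosen with earlier results of these data known, so the sizes of their differences are given as description only. The median absolute log2 difference of the 7 was 0.80, 2.57 and 1.49 in the 3 comparisons, beside 0.30, 0.57 and 0.53 over all tested genes. Pdgfra, Pdgfrb, Fgfr1 and Axl were higher in C57MG than in both other lines, a pattern of 25.9% of tested genes, and Pdgfa and Met were lower there than in both, as were 28.5%. The comparisons share their libraries and are not independent.

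**Figure D2:**
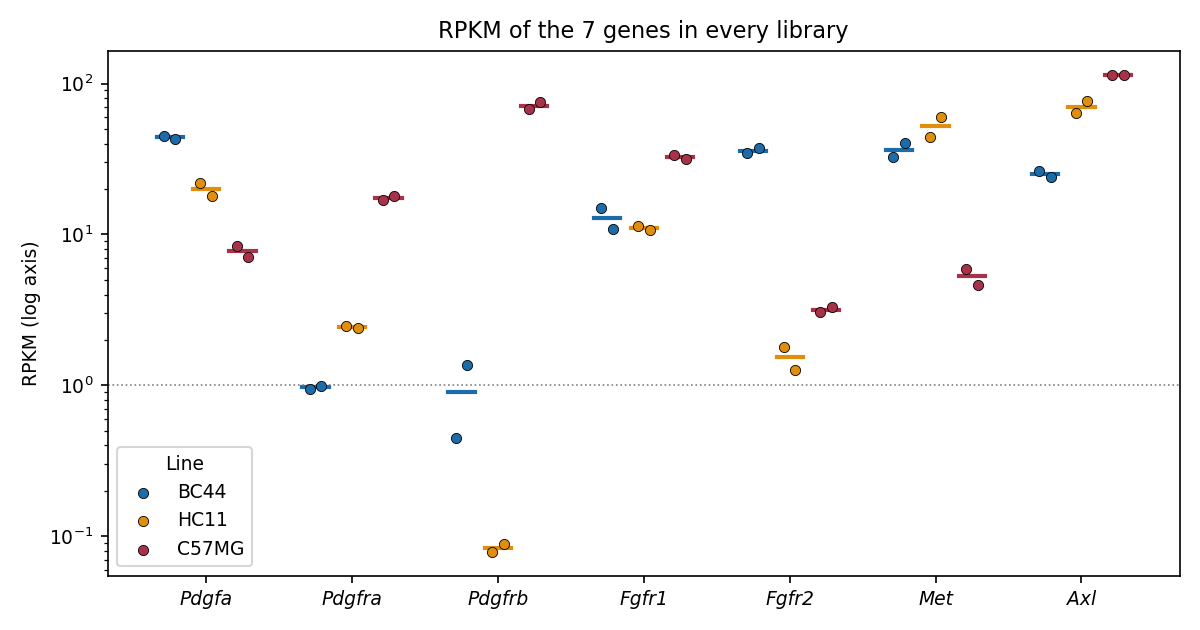
RPKM of the 7 genes (log axis) in BC44, HC11 and C57MG; points are single libraries, short bars the mean of 2, and the dotted line marks 1 RPKM. Pdgfrb spans the widest range, from 0.079 RPKM in HC11 replicate 1 to 75.3 in C57MG replicate 2, and Fgfr1 the narrowest.

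The stretches of DNA before the annotated starts of Pdgfra and Axl, both highest in C57MG, and of Met and Fgfr2, both lower in C57MG than in BC44, are shown for comparison. The sequences are from RefSeq (GRCm38.p6), whose table held windows for 5 of the 7 genes and not for Fgfr1 and Pdgfrb. Bases just after the start were found in a GENCODE M21 transcript of the gene for Met and Pdgfa, but not for Pdgfra, Axl and Fgfr2. The starts of Pdgfra, Axl and Fgfr2 are therefore uncertain. They run 5′ to 3′ on the strand of the gene and end before the first annotated exon base or the start. Capitals mark matches to GGGCGG (the GC box) on either strand.
Pdgfra, chr5:75152001-75152250, plus strand: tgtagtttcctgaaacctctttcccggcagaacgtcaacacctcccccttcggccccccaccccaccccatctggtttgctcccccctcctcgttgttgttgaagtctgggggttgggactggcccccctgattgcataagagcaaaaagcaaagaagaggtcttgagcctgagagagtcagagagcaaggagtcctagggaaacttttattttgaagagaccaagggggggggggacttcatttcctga
Axl, chr7:25788734-25788983, minus strand: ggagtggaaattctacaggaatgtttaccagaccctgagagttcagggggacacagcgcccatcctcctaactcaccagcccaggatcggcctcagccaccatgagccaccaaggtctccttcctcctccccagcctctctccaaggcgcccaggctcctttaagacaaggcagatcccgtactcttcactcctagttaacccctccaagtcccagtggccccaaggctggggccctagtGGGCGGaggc
Met, chr6:17463707-17463799, plus strand: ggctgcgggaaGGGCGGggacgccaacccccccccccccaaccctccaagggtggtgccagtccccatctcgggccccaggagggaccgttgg
Fgfr2, chr7:130266809-130267058, minus strand: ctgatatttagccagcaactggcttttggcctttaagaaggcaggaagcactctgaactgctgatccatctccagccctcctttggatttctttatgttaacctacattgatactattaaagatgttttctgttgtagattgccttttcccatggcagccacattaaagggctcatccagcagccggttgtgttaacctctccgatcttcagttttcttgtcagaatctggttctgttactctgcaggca

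The search for 4 motifs covered both strands of the 250 bases before each start, and no motif contains another. AACCGGTT, the core read by GRHL factors, was in 0.1% of 32851 windows and in none of those of the 5 genes. CACCTG, an E-box read by ZEB and SNAI factors, was in 17.2% of all windows and also in none of theirs. The GC box GGGCGG, found in 32.7% of windows, occurred 3 times before Met (1 of them in the stretch shown), once before Axl and 1 and 2 times in the windows of Pdgfa, and not before Pdgfra or Fgfr2. TGANTCA, the AP-1 site, was in 6.7% of windows and once before Met. The Met and Pdgfa windows were rich in G and C (74.0% for Met, 66.4% and 72.4% for Pdgfa), Axl had 60.0%, Pdgfra 54.4% and Fgfr2 44.0%. These matches describe the letters of the windows only.

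The ligand gene Pdgfa was highest in BC44, where Pdgfra was lowest. Pdgfa (ENSMUSG00000025856, chromosome 5, 138976014 to 138997370, minus strand, GRCm38) encodes the A chain, whose dimer binds PDGFRα. It stood at 44.9 and 43.0 RPKM in BC44 replicates 1 and 2, at 21.9 and 18.0 for HC11 and at 8.37 and 7.09 for C57MG. The 3 lines did not overlap, and the order was BC44, HC11, C57MG. The log2 difference was 1.11 (SE 0.12, limma adjusted p 0.000278) for BC44 over HC11 and 2.37 (SE 0.12, 1.75e-06) for BC44 over C57MG. HC11 exceeded C57MG by 1.26 (SE 0.12, 5.61e-05).

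Pdgfra (ENSMUSG00000029231, chromosome 5, 75152292 to 75198215, plus strand, GRCm38) encodes PDGFRα, which accepts all PDGF chains except PDGF-D. It measured 17.0 and 17.9 RPKM in C57MG, 2.47 and 2.40 in HC11 and 0.954 and 0.987 in BC44, again without overlap. C57MG held 18.0 times the mean RPKM of BC44 and 7.18 times that of HC11. The log2 differences were -3.23 (SE 0.10, adjusted p 2.75e-07) for BC44 against C57MG, -2.43 (SE 0.10, 7.14e-07) for HC11 against C57MG and -0.80 (SE 0.10, 0.000489) for BC44 against HC11. Pdgfra thus ran opposite to its ligand gene Pdgfa over the 3 lines. The RPKM ratio of Pdgfa to Pdgfra was 47.1 and 43.6 in BC44, 8.87 and 7.48 for HC11 and 0.492 and 0.395 for C57MG.

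Pdgfrb (ENSMUSG00000024620, chromosome 18, 61045150 to 61085061, plus strand, GRCm38) encodes PDGFRβ, the main receptor of PDGF-B and a common marker of fibroblasts and pericytes. It was at 67.5 and 75.3 RPKM in C57MG, at 0.449 and 1.36 in BC44 and at 0.079 and 0.089 in HC11. Within C57MG, Pdgfrb exceeded Pdgfra 3.97-fold and 4.198-fold in RPKM, while in HC11 it was 0.032 and 0.037 of the Pdgfra value. The mean RPKM of C57MG was 79.0 times that of BC44 and 850 times that of HC11, where the values rest on an estimated 8 and 7 reads. On the log2 scale the differences were -5.29 (SE 0.21, adjusted p 5.62e-07) for BC44 and -6.06 (SE 0.21, 4.16e-07) for HC11, against C57MG.

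The small amount of Pdgfrb in BC44 differed between its replicates. A set of genes private to C57MG was used as a yardstick: a mean of at least 20 RPKM there, with no more than 2% of it in HC11 and no more than 5% in the BC44 library not being read. For 72 such genes, BC44 replicate 1 showed a median of 0.682% of what C57MG had, and Pdgfrb stood at 0.629% of its own. For 71 genes, BC44 replicate 2 showed a median of 2.02%, and Pdgfrb stood at 1.90%. Pdgfrb was inside the interquartile range of these genes in both libraries (0.526% to 1.63% and 1.65% to 2.60%), and the part of this signal in the Pdgfrb level of BC44 was not tested. With the roles of BC44 and HC11 exchanged, 62 and 67 such genes had medians of 0.254% and 0.358% in the HC11 libraries. There Pdgfrb stood at 0.111% and 0.125%, inside the interquartile ranges (0.062% to 0.76% and 0.069% to 1.51%). The part of this signal in its HC11 level was not tested either. The difference of 0.77 (SE 0.21, adjusted p 0.0203) for BC44 over HC11 was lost without BC44 replicate 2 (0.42, 0.0570), without HC11 replicate 1 (0.76, 0.0520) and without HC11 replicate 2 (0.78, 0.0531), and was 2.28 with a pseudocount of 0.1. Pdgfra in BC44 was at 5.46% and 5.64% of its C57MG level and in HC11 at 14.1% and 13.7%, past the limits that define a private gene, so the yardstick says nothing further of it.

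**Figure D3:**
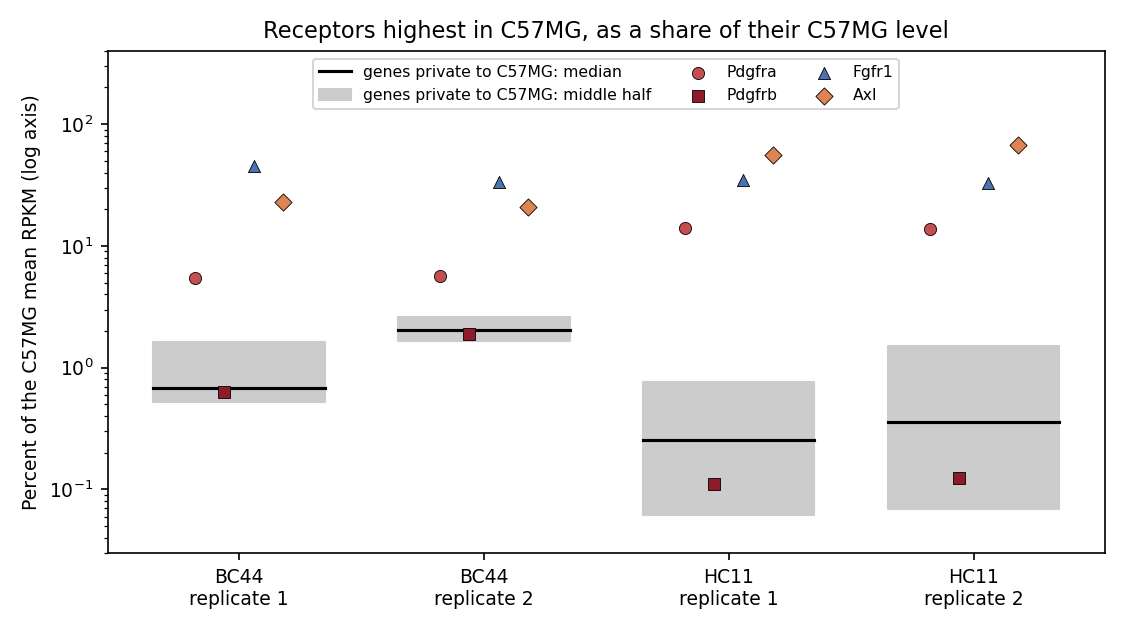
Pdgfra, Pdgfrb, Fgfr1 and Axl in the BC44 and HC11 libraries as a percentage of their C57MG mean RPKM (log axis); black lines and grey boxes give the median and interquartile range of genes private to C57MG. Pdgfrb lies inside the grey boxes at 0.629% and 1.90% in BC44 and at 0.111% and 0.125% in HC11. Pdgfra, Fgfr1 and Axl lie at 5.46% or more in all 4 libraries.

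Of the other PDGF genes in a fixed list of 7, Pdgfb, Pdgfc and Pdgfrl were listed, and Pdgfd was not analysed here. Pdgfb, the B chain, was at 23.4 ± 3.65 RPKM (SD, n = 2) in BC44, against 10.03 ± 2.04 in C57MG and only 1.25 ± 0.258 in HC11. Its log2 differences were 3.44 for BC44 over HC11 and -2.28 for HC11 against C57MG (limma adjusted p 6.14e-06 and 1.42e-05). Pdgfc, the C chain, was highest in C57MG at 8.40 ± 1.17 RPKM, with 1.84 ± 0.282 in BC44 and 0.673 ± 0.233 in HC11. Pdgfrl, a secreted protein resembling the receptors' extracellular part, was at 6.60 and 8.22 RPKM in HC11, 0.372 and 0.147 in BC44, and listed at 0 in both C57MG libraries. C57MG was the line in which both receptors and 3 chains, Pdgfa, Pdgfb and Pdgfc, all exceeded 5 RPKM. Of the list's 6 tested genes, 3 of them described above, 4 were higher in BC44 and 2 in HC11 (24.7% and 23.0% of all tested genes were). Against C57MG, 2 were higher and 3 lower in BC44 (37.5% and 34.1% of all), and 2 higher and 4 lower in HC11 (37.4% and 33.2%). Their median log2 difference was 0.77, -0.70 and -2.36 in the 3 comparisons, against 0.02, 0.04 and 0.03 over all genes.

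The FGF receptor genes exchanged places between lines. Fgfr1 (ENSMUSG00000031565, chromosome 8, 25513654 to 25575718, plus strand, GRCm38), the receptor commonly found in mesenchymal cells, was at 33.9 and 31.6 RPKM in C57MG, 14.9 and 10.9 in BC44 and 11.3 and 10.7 in HC11. C57MG stood apart, and BC44 and HC11 overlapped. The log2 difference was -1.29 (SE 0.14, adjusted p 8.85e-05) for BC44 and -1.49 (SE 0.14, 4.71e-05) for HC11, against C57MG. Between BC44 and HC11 it was 0.20 (95% interval -0.13 to 0.52, adjusted p 0.281). Without BC44 replicate 2 that difference passed (0.40, 0.0331), and without BC44 replicate 1 it was -0.01 (0.949), so the order of these neighbours was not resolved.

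Fgfr2 (ENSMUSG00000030849, chromosome 7, 130162451 to 133123350, minus strand, GRCm38, the span of the longest annotated transcript) encodes the receptor whose epithelial splice form answers stromal FGF7 and FGF10 and is needed for mammary bud and duct growth. It was at 34.6 and 37.2 RPKM in BC44, with 3.07 and 3.30 for C57MG and 1.79 and 1.27 for HC11. BC44 held 23.4 times the mean RPKM of HC11 and 11.3 times that of C57MG. The log2 differences were 3.87 (SE 0.13, adjusted p 1.44e-06) against HC11 and 3.14 (SE 0.13, 5.62e-07) against C57MG. HC11 was below C57MG by a smaller step, -0.73 (SE 0.13, 0.00132), although HC11 is epithelial-like. Fgfr2 in HC11 was at 5.00% and 3.55% of its BC44 level, where 18 genes private to BC44 had medians of 2.38% and 1.21% and reached 5.80% and 6.82%. Fgfr2 was above the interquartile range of these genes in both HC11 libraries (0.70% to 3.18% and 0.44% to 2.21%), though under their highest values. In C57MG it was at 8.54% and 9.19% of its BC44 level, past the 2% limit that defines a private gene. The yardstick therefore says nothing further of Fgfr2, and the part of such a signal in its level was not tested. The RPKM ratio of Fgfr2 to Fgfr1 was 2.33 and 3.40 in BC44, 0.159 and 0.118 for HC11 and 0.091 and 0.104 for C57MG.

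The table gives 1 value per gene, so the IIIb (epithelial) and IIIc (mesenchymal) forms of FGFR2 were not told apart. Esrp1 and Esrp2 encode the splicing factors that favour the IIIb exon. Esrp1 was at 50.1 ± 3.24 RPKM in BC44 and 38.5 ± 4.85 in HC11 (SD, n = 2), while the C57MG replicates 1 and 2 had 0.439 and 0. Esrp2 was at 33.4 ± 2.48 RPKM in BC44, 13.8 ± 2.55 for HC11 and 0.255 and 0 for C57MG. HC11 therefore had the Esrp genes with little Fgfr2. Of the 8 tested regulators of FGFR2 splicing in the fixed list, 2 were higher in BC44 than in HC11 (Esrp2 and Mbnl1) and 6 did not pass, where 24.7% of all tested genes were higher in BC44. Against C57MG, 5 were higher and 2 lower in BC44 (37.5% and 34.1% of all), and 4 higher and 3 lower in HC11 (37.4% and 33.2%).

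The tested genes for FGF ligands and FGF-binding proteins were lowest in C57MG, and the remaining receptor genes had no common order. Fgfr3 was low, with 1.84 ± 0.159 RPKM in BC44, 0.570 ± 0.120 for HC11 and 0.288 ± 0.115 for C57MG (SD, n = 2). Fgfrl1, a receptor without a kinase domain, was at 9.25 ± 2.40 RPKM in BC44, 4.69 ± 1.51 for HC11 and 12.7 ± 0.247 for C57MG. Of 24 genes for FGF ligands and FGF-binding proteins, 6 were listed and 4 tested. All 4 were higher than C57MG in BC44 and in HC11 (37.5% and 37.4% of all tested genes were), with a median log2 difference of 2.98 and 1.79. All 4 were under 1 RPKM in both C57MG libraries, so they passed the filter only through the lines where they are high. Between BC44 and HC11, 2 were higher in BC44, 1 in HC11 and 1 did not pass. Fgf1 and Fgf7, which encode secreted ligands, stayed at or under 1.56 and 0.537 RPKM in every library and were not tested. Their lowest means were not in C57MG, with Fgf1 at 0.078 RPKM in HC11 and Fgf7 at 0.0735 RPKM in BC44. Fgfbp1, a carrier that releases FGFs from the matrix, was at 134 and 125 RPKM in HC11, 35.8 and 40.7 in BC44 and 0.384 and 0.225 in C57MG. Its log2 difference was 6.64 for HC11 and 4.91 for BC44 over C57MG (adjusted p 6.71e-08 and 2.71e-07). Fgf13, which acts inside the cell, was at 13.3 ± 2.13 RPKM in BC44, 5.02 ± 1.45 for HC11 and 0.041 and 0 for C57MG. Fgf21, a hormone-like FGF, measured 3.57 ± 1.30 RPKM in BC44, 1.10 ± 0.493 in HC11 and was listed at 0 in C57MG. Fgfbp3, another FGF-binding protein, was at 2.59 and 2.68 RPKM in BC44, 2.19 and 2.52 for HC11 and 0.656 and 0.805 for C57MG.

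A list of 22 genes held the FGF receptors themselves, the heparan sulfate proteoglycans that hold FGFs at the receptor, and other partners, and 16 were tested. Against C57MG, 3 were higher in BC44 (Fgfr2, Fgfr3 and Flrt2) and 6 lower (Fgfr1, Sdc2, Sdc3, Sdc4, Gpc1 and Fibp), where 37.5% and 34.1% of all tested genes were. In HC11, 2 were higher than in C57MG (Sdc1 and Flrt3) and 10 lower, among them Fgfr1, Fgfr2 and Fgfrl1, where 37.4% and 33.2% of all were. The syndecan gene Sdc3 was at 129 and 116 RPKM in C57MG, 10.3 and 10.4 in BC44 and 12.2 and 13.1 in HC11. Gpc1, a glypican gene, was at 211 ± 33.4 RPKM in C57MG, 51.6 ± 3.52 in BC44 and 55.01 ± 4.38 in HC11 (SD, n = 2). Between BC44 and HC11, 8 genes of the list were higher in BC44, among them Fgfr2, Fgfr3 and Fgfrl1, and 5 in HC11 (24.7% and 23.0% of all). Flrt2 and Flrt3, membrane proteins that bind FGF receptors, split the epithelial-like lines: Flrt2 was at 8.40 and 11.97 RPKM in BC44 and 0.446 and 0.687 in HC11. Flrt3 was at 0.520 and 0.860 RPKM in BC44 and 8.56 and 20.97 in HC11. The list's median log2 difference was 0.23, -0.16 and -0.60 in the 3 comparisons.

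Met (ENSMUSG00000009376, chromosome 6, 17463800 to 17573980, plus strand, GRCm38), the receptor of hepatocyte growth factor, was an epithelial-like gene here. It was at 32.5 and 40.4 RPKM in BC44, 44.4 and 59.7 for HC11 and 5.92 and 4.65 for C57MG. The mean RPKM of C57MG was exceeded 6.89-fold in BC44 and 9.85-fold in HC11. The log2 differences over C57MG were 2.57 (SE 0.17, adjusted p 7.67e-06) and 3.07 (SE 0.17, 3.61e-06). BC44 and HC11 did not overlap, but their difference of -0.50 (SE 0.17, adjusted p 0.0492) was at the threshold. It did not pass in 7 of 16 alternatives, among them leaving out BC44 replicate 1 (-0.34, 0.256), BC44 replicate 2 (-0.65, 0.0605) or HC11 replicate 2 (-0.29, 0.223).

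The MET ligand gene Hgf was at 3.38 and 3.60 RPKM in HC11. The other libraries had 0 to 3 estimated reads of Hgf. Set against a floor of 3 reads per library, Hgf in HC11 was at least 131-fold higher than in BC44 and 139-fold or more higher than in C57MG, and its log2 difference was 2.15 over each (limma adjusted p 3.29e-06 and 8.13e-07). Hgf passed the expression filter through the HC11 libraries alone, so it was tested because it is high there. Matriptase, the product of St14, activates the HGF precursor, and Spint1 and Spint2 encode its membrane inhibitors. St14 was at 52.7 and 48.5 RPKM in BC44, 39.5 and 35.4 for HC11 and 0.314 and 0 for C57MG. Spint2 was at 106 ± 14.4 RPKM in BC44 and 143 ± 6.03 in HC11 (SD, n = 2), and at 0.796 and 0.044 in C57MG. Spint1 was at 24.1 and 19.4 RPKM in BC44, 30.8 and 27.9 for HC11 and 0.140 and 0 for C57MG. Met, St14, Spint1 and Spint2 were thus all low in C57MG, although Met itself was still measured at about 5 RPKM. Other protease genes were mixed. Prss8 was low there too, at 0.03 and 0 RPKM. Plau was instead highest in C57MG, at 96.4 and 108.4 RPKM, with 39.96 and 78.94 in HC11 and 27.99 and 29.4 in BC44. Plat is given below. Activation of HGF itself was not tested.

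Of 18 genes in the HGF and MSP list, which holds Met itself, 15 were tested. Against C57MG, 11 were higher and 3 lower in HC11 (37.4% and 33.2% of all tested genes were), and 7 higher and 6 lower in BC44 (37.5% and 34.1%). Between BC44 and HC11, 3 were higher in BC44, 7 in HC11 and 5 did not pass (24.7% and 23.0% of all were higher in BC44 and HC11). Several of the 11 higher in HC11 than in C57MG, among them Hgf, St14, Spint1 and Spint2, were under 1 RPKM in both C57MG libraries. Such genes passed the filter only through lines where they are high. Mst1, the gene of the HGF-related ligand MSP, ran the other way, at 9.54 and 7.46 RPKM in C57MG, 2.78 and 1.68 in BC44 and 0.565 and 0.580 in HC11. Lrig1, a membrane protein that restrains several receptor kinases including MET, was at 44.0 and 55.5 RPKM in HC11, 16.8 and 16.9 in C57MG and 2.88 and 2.03 in BC44. Plat, tissue plasminogen activator, was at 26.0 and 43.1 RPKM in HC11, 20.1 and 18.8 in C57MG and 3.30 and 2.90 in BC44. The median log2 difference of the list was -0.42, 0.00 and 1.5 in the 3 comparisons, against 0.02, 0.04 and 0.03 over all genes.

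Axl (ENSMUSG00000002602, chromosome 7, 25757273 to 25788705, minus strand, GRCm38) had the highest RPKM of the 6 receptors in C57MG and HC11. It was at 115 and 114 RPKM in C57MG, 63.6 and 76.8 in HC11 and 26.2 and 24.1 in BC44. The lines did not overlap, and HC11 lay between the other lines. The log2 differences were -2.14 (SE 0.10, adjusted p 1.30e-06) for BC44 against C57MG, -1.44 (SE 0.10, 3.53e-05) for BC44 against HC11 and -0.70 (SE 0.10, 0.000546) for HC11 against C57MG. Axl was therefore not limited to the mesenchymal-like line. In BC44 the RPKM of Met exceeded that of Axl 1.24-fold and 1.68-fold, and in C57MG Axl exceeded Met 19.4-fold and 24.6-fold.

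The AXL ligand gene Gas6 ran opposite to Axl. It was at 68.7 and 58.7 RPKM in BC44, 3.57 and 3.28 for HC11 and 0.662 and 0.025 for C57MG replicates 1 and 2, the last an estimated 1 read. BC44 exceeded HC11 by 3.87 and C57MG by 5.63 on the log2 scale (limma adjusted p 1.13e-05 and 4.71e-07). HC11 exceeded C57MG by 1.76 (0.000210). The mean RPKM of HC11 was 0.0539 times that of BC44. In HC11, the 18 genes private to BC44 had medians of 2.38% and 1.21% and reached 5.80% and 6.82%. The part of such a signal in the HC11 level of Gas6 was not tested. In C57MG, 11 genes private to BC44 reached a median of 0.729% (replicate 1) and 0% (replicate 2) of what BC44 had, and the part of this signal in the replicate difference of Gas6 was not tested. Pros1, protein S, a ligand of the related TYRO3 and MERTK receptors, ran with Axl: 24.04 and 22.7 RPKM in C57MG, 4.19 and 4.37 in HC11 and 0.284 and 0.533 in BC44. Tyro3 was moderate everywhere, with 8.27 ± 0.321 RPKM in C57MG, 6.63 ± 0.764 in BC44 and 3.55 ± 0.552 in HC11 (SD, n = 2). Mertk was not analysed here. Lgals3, galectin-3, a reported MERTK ligand, was at 345.8 and 347.7 RPKM in C57MG, 178.0 and 213.6 in HC11 and 125.2 and 126.4 in BC44. All 5 tested genes of the TAM list differed between BC44 and HC11 and between HC11 and C57MG, and 4 of 5 between BC44 and C57MG, where 47.7%, 70.5% and 71.7% of all tested genes differed.

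**Figure D4:**
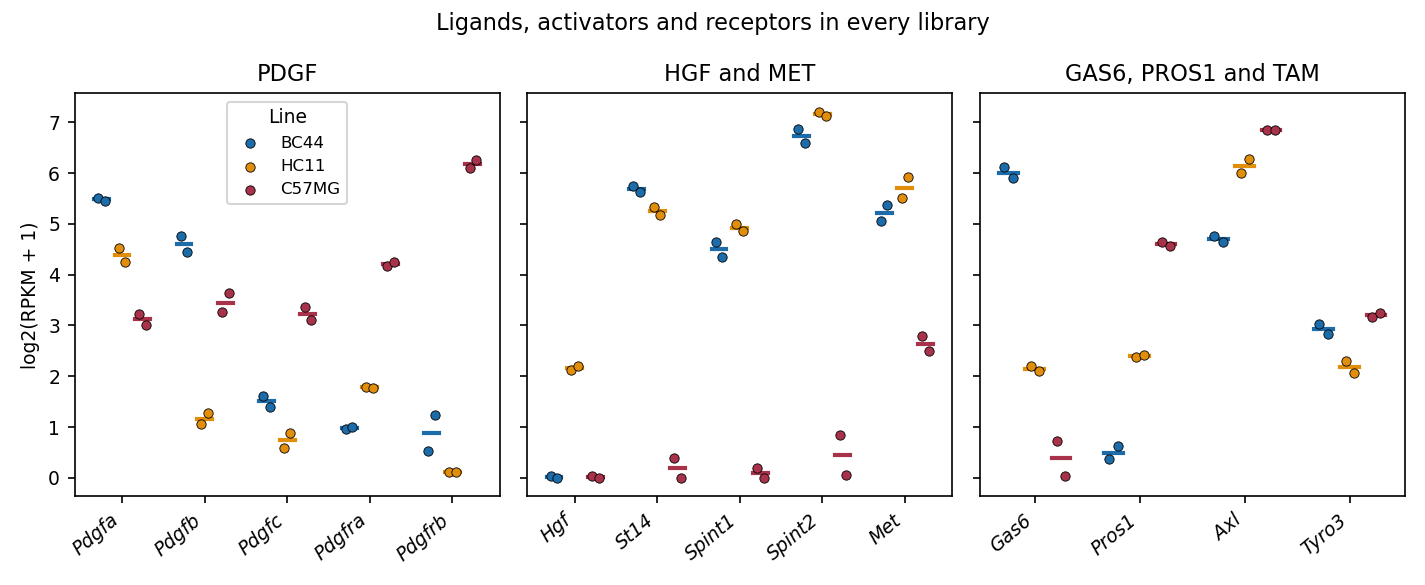
Expression as log2(RPKM + 1) of ligands, St14 with the genes of its inhibitors, and receptors in every library. Points are libraries and short bars the means of 2. Pdgfa and Gas6 are highest in BC44 where Pdgfra and Axl are lowest, and Hgf is above 3 RPKM only in HC11.

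**Figure D5:**
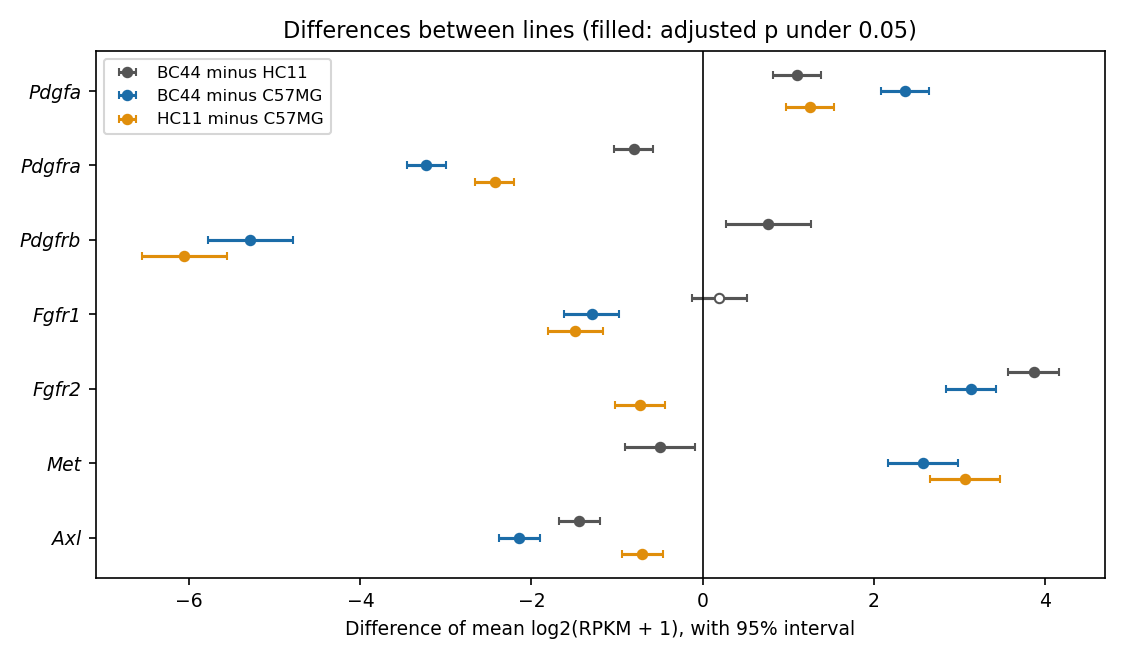
Difference in mean log2(RPKM + 1) of each gene for the 3 comparisons, with 95% intervals; filled points have a limma adjusted p under 0.05. The intervals of Pdgfrb, Pdgfra and Fgfr2 lie farthest from 0, and Fgfr1 between BC44 and HC11 has an interval that holds 0.

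Other receptor tyrosine kinases outside the ErbB, insulin receptor and Eph families were taken from a list of 23, of which 9 were listed and 7 tested. Against C57MG, none of the tested genes was higher in BC44 or HC11, while 5 were lower in BC44 and 6 in HC11 (34.1% and 33.2% of all). Ret and Styk1 passed the filter through C57MG alone. The untested genes had their highest values in HC11: Ror1 at 0.533 and 0.436 RPKM there and at most 0.045 elsewhere, and Ntrk2 at 0.304 and 0.152 there and listed at 0 elsewhere. Ddr2, a collagen receptor, was at 51.9 and 57.5 RPKM in C57MG, 0.487 and 1.20 in BC44 and 0.102 and 0.108 in HC11, much like Pdgfrb. Flt1, a VEGF receptor, was at 8.20 ± 0.743 RPKM in C57MG, 4.32 ± 0.311 in HC11 and 0.186 ± 0.0870 in BC44 (SD, n = 2). Styk1 was at 5.92 and 4.53 RPKM in C57MG and under 0.5 RPKM elsewhere. The list's median log2 difference was 0.26, -2.09 and -0.87 in the 3 comparisons.

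The adaptors and kinases that act after these receptors were taken from a list of 41. Of 39 tested genes, 20 differed between BC44 and HC11, 27 between BC44 and C57MG and 25 between HC11 and C57MG, where 47.7%, 71.7% and 70.5% of all tested genes did. Their median absolute log2 difference was 0.35, 0.44 and 0.53, against 0.30, 0.57 and 0.53 over all tested genes. Grb2, which links receptors to RAS activation, was at 120 and 120 RPKM in HC11 and between 39.3 and 44.4 in the other libraries. Shc1, another adaptor, was at 43.2 and 42.0 RPKM in C57MG and between 12.6 and 14.4 elsewhere. Gab1, the docking protein used by MET, was at 32.6 ± 3.88 RPKM in BC44, 15.1 ± 1.92 for HC11 and 8.92 ± 0.201 for C57MG (SD, n = 2). Plcg2, a phospholipase, was at 39.7 and 33.2 RPKM in BC44, 26.6 and 25.2 for HC11 and 0.386 and 0.015 for C57MG. Stat3, a transcription factor acting downstream of several receptors, was at 41.0 and 37.2 RPKM in HC11 and between 14.1 and 18.1 elsewhere.

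Likeness of pattern was measured as the root mean square difference of log2(RPKM + 1) over the 6 libraries after centring each gene. Since the 6 libraries are 3 lines, a close match means little more than 3 similar line levels. Pdgfrb was closest to Emilin1 and Chst1 (0.07 each) and then Slc1a3 (0.12). Pdgfra was closest to P3h1 (0.09), Plcb1 (0.10) and Ccdc122 (0.11), and Fgfr1 to Usp20 (0.06), Kdelr3 (0.08) and Carns1 (0.09). Axl was closest to Rbpj and Lipa (0.05 each) and Spata6 (0.08). Genes close to Met included Pard6b (0.12) and Slc7a11 (0.18), and Pdgfa was closest to Msx2 (0.08), Nfatc2 and Plekha1 (0.12 and 0.13). Fgfr2 had no near match: its nearest genes were Rgcc (0.24), Fam180a (0.30) and Cbs (0.32). Among the 7 genes the nearest pair was Fgfr1 and Axl at 0.68, so no pair of them shared a pattern as closely as each did with genes outside the set.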

How the data were processed

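Poly(A) RNA libraries of BC44, HC11 and C57MG, 2 each, were deposited as 1 table of 11417 genes. Its name calls the values RPKM, which the authors had scaled before they were deposited with 3 decimals. STAR and mm9 are named in the submitters' processing notes. The counter, the annotation, the gene lengths, any filter and the use of strand in counting are not given in the sources used here, so overlapping and antisense genes are uncertain. Coordinates are from GENCODE M21 (GRCm38) and were not converted. All 11417 identifiers matched it. The Fgfr2 span includes 1 transcript of 2960900 bases, while the median coding transcript spans 97899.

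The 10759 genes reaching 1 RPKM in 2 or more libraries entered limma 3.58.1 (R 4.3.3) after conversion to log2(RPKM + 1), with trend, all 6 libraries, Benjamini-Hochberg adjustment and two-sided tests. This scale understates changes of low genes. An exact permutation test of 2 against 2 libraries cannot go below 0.33 and was not used. The test was checked on simulated data. Python 3.11.15, pandas 2.3.3 and matplotlib 3.10.9 did the rest.

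Depth was estimated from the steps of low values with union exon lengths: 1 read matched denominators of 14020000 to 18420000 reads, with 76.3% to 82.5% of low values within 0.15 of a whole number against 30% by chance. Estimated reads and the floor of 3 reads cover counting error only.

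The members and gene lists were chosen with earlier results of these data known. The rule for named genes took the 7 members, family members whose mean reached 1 RPKM in any line, Esrp1, Esrp2, the 2 genes per list with the largest passing difference in each comparison, and the 3 most alike genes per member, of which 1 is not reported here. Genes of these lists that the table did not hold were not analysed here. Fgf7, Fgfbp3, Ror1, Ntrk2, Ret, Sdc1, Sdc2, Sdc4, Fibp, Gpc1, Spint1, Plau, Prss8 and Lgals3 were named after their values were seen. The replicate numbers do not mark a stated shared culture. Alternatives were another pseudocount (0.1), no filter, a mean of at least 5 RPKM, quantile and median-ratio scaling, only the 4 libraries compared, no trend, robust variance, the replicate number as a block, and each library left out in turn.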

Additional observations from a re-analysis of the deposited data

How the results depend on the processing

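Of 21 differences (7 genes in 3 comparisons), 18 kept their direction and side of the threshold under every alternative run. The exceptions were Pdgfrb, Met and Fgfr1 between BC44 and HC11. Fgfr1 turned from 0.195 to -0.011 (limma adjusted p 0.949) without BC44 replicate 1 and passed at 0.401 (0.0331) without BC44 replicate 2. Its adjusted p over 16 alternatives ranged from 0.0331 to 0.949. Met did not pass with a pseudocount of 0.1 (0.0670), no filter (0.0537), only the 4 libraries compared (0.0551) or no trend (0.0571). The cause was not tested.

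Leaving out 1 library gave 3600 to 4758 genes for BC44 against HC11, 6128 to 7947 for BC44 against C57MG and 5835 to 7339 for HC11 against C57MG, beside 5129, 7713 and 7590. It gave 4 to 6, 7 and 7 of the 7 members. An alternative chosen after the data were seen left out both BC44 replicate 2 and C57MG replicate 1, the library of each pair with the higher median share of the other line's private genes. It gave 2996 genes for BC44 against HC11 and 4875 for BC44 against C57MG, with fewer samples, and Pdgfrb no longer met the filter. With the replicate block 5350, 7875 and 7721 genes and 6, 7 and 7 members passed, and no other call of the members changed. Same-numbered libraries' deviations correlated across genes at 0.354 for BC44 and HC11, -0.039 for BC44 and C57MG and 0.038 for HC11 and C57MG. The labels state no pairing, so the numbers were not taken as pairs. What lies behind the 0.354 was not tested. With 2 libraries a line, values under about 0.1 RPKM rest on few reads.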
